A study of Homo sapiens with 24 samples.

Results

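The HOX genes encode homeodomain transcription factors and lie in 4 clusters, HOXA on chromosome 7, HOXB on chromosome 17, HOXC on chromosome 12 and HOXD on chromosome 2. They were chosen by name and by no cut-off on a measured value, though with earlier results of these data known. In all 38 were taken of 20136 protein-coding genes in the annotation (GENCODE release 44 on GRCh37, also called hg19). Of these, 10 lay in HOXA, 10 in HOXB, 9 in HOXC and 9 in HOXD. The measure throughout was the number of base pairs (bp) covered by called peaks in a window reaching 5 kb to each side of the transcription start site (TSS) of the canonical transcript, out of 10001 bp. Because HOX genes lie close together, 23 members had a window that overlapped that of another member, and neighbours such as HOXC5 and HOXC6 can count the same peak.

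The peaks came from chromatin immunoprecipitation and sequencing of PANC-1 cells, an established line from a human pancreatic ductal carcinoma, for H3K4me3, H3K27ac and H3K27me3. The study asked how PHF13, a chromatin protein that reads H3K4me3, acts on chromatin during the epithelial-to-mesenchymal transition that TGFβ induces. For each modification 3 groups were profiled, with 2 libraries each: control siRNA without TGFβ (siControl), control siRNA with TGFβ (siControl+TGFβ) and siRNA against PHF13 with TGFβ (siPHF13+TGFβ), the cytokine given at 10 ng/ml for 48 h. All groups were the same cell line under siRNA transfection, no group received PHF13 siRNA without TGFβ, and nothing in the labels says that the 2 libraries came from separate cultures, so a p-value measures only the spread between these libraries. An siRNA acts on RNA, and the peak lists therefore hold no check of how far PHF13 was depleted. The keratins KRT8, KRT18 and KRT19, which mark this epithelial line, each had an H3K4me3 peak within 1 kb of the TSS in 6 of 6 lists.

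H3K4me3 lists held 27869 to 39202 peaks, H3K27ac lists 6004 to 36104 and H3K27me3 lists 59573 to 165717, and the shortest of each was siPHF13+TGFβ replicate 1. That library covered 1.89 Mb in H3K27ac against 28.8 Mb in its partner. Tests per window, counts of windows whose groups did not overlap and totals over the clusters were therefore also made without it. Classes by TSS and median differences were not, and a class counts a modification only where both libraries have a peak. The peak names inside the 6 lists labelled siPHF13+TGFβ carry the abbreviation NCT, and those inside the 6 lists labelled siControl+TGFβ carry 3AT. The study's text uses NCT for control siRNA with TGFβ, and the sources used here do not explain 3AT. The labels were followed here. Were these sets of lists exchanged, the direction of every siPHF13 comparison would turn, and the comparison for TGFβ would set siPHF13+TGFβ against siControl. Read counts were not used here, so sequencing depth behind each list is unknown.

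In vertebrates the order of HOX genes along a cluster follows the body region in which each is used, with low-numbered genes anterior and high-numbered genes posterior. In cells that do not use a cluster, Polycomb complexes coat it with H3K27me3, and trithorax complexes mark the starts of genes in use with H3K4me3, often with H3K27ac. Promoters that carry both H3K4me3 and H3K27me3 are called co-occupied here, a state known as bivalent from embryonic stem cells.

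The promoter of HOXD11 is printed as an example of a start site that was co-occupied without acetylation. It is the 200 bases just upstream of the TSS on the gene's own strand, read from GRCh37, and overlapped no annotated exon. CG dinucleotides, the substrate of DNA methylation and the base composition of CpG islands, are in capitals.
HOXD11 promoter, chr2:176971808-176972007, plus strand: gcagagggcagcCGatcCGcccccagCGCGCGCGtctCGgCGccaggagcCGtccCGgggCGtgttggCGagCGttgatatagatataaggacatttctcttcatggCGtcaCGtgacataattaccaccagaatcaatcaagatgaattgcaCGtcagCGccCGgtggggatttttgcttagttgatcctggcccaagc

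HOXD11 held 18 CG in these bases. The same stretch held a median of 12 CG over the 38 HOX genes and 15 over all coding genes, of which 96.1% had at least 1. Over the whole window the order was the other way: HOX windows had a median of 343.5 CG (lowest 198, highest 512) and all coding windows 212, with quartiles of 149 and 276. HOXA windows held the most, with a median of 455, and those of HOXB, HOXC and HOXD 316, 315 and 336. Across the 38 windows, the Spearman correlation of CG count with mean covered length was 0.26 for H3K4me3, 0.08 for H3K27ac and 0.17 for H3K27me3. These are descriptions over windows that share bases and libraries.

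Another sequence stands for the acetylation listed at HOXC9 under TGFβ, described below. It is the longest stretch without exon bases in the HOXC9 window that H3K27ac peaks covered in both siControl+TGFβ lists and in neither siControl list. It measures 235 bp, from -3062 to -2828 bp relative to the canonical TSS. Though upstream of that TSS, it lies inside the annotated HOXC9 gene, chr12:54388679-54397121. The annotated HOXC6 gene, chr12:54384408-54424607, also holds it.
HOXC9 upstream stretch, chr12:54390883-54391117, plus strand: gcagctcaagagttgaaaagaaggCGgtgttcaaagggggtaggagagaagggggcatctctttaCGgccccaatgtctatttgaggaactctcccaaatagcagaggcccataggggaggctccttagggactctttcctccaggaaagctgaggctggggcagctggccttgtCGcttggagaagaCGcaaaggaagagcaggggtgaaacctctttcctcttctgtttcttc

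The 4 clusters carried different modifications. No H3K27me3 peak was listed in the whole HOXC cluster, chr12:54327615-54452619, in any of the 6 lists. In HOXB a run of 169 kb, chr17:46609373-46778372, had no 1 kb bin at least 500 bp covered by H3K27me3 in any list, and it held the TSSs of HOXB2 to HOXB9. H3K27me3 in HOXB lay instead around HOXB13 and, in 3 of 6 lists, at HOXB1. In HOXA the corresponding run measured 54 kb, chr7:27137302-27191301, with the TSSs of HOXA2, HOXA4, HOXA5 and HOXA6. It starts at the lower bound taken for the cluster, 5 kb from the HOXA2 TSS, so its full length was not measured. Beyond the upper end of this run H3K27me3 stood at HOXA3, whose canonical TSS lies between those of HOXA6 and HOXA7, and from HOXA7 to HOXA13. All 9 HOXD windows had H3K27me3 in at least 5 lists, and its longest gap, 17 kb at chr2:176990449-177007448, held the TSS of HOXD8.

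**Figure D1:**
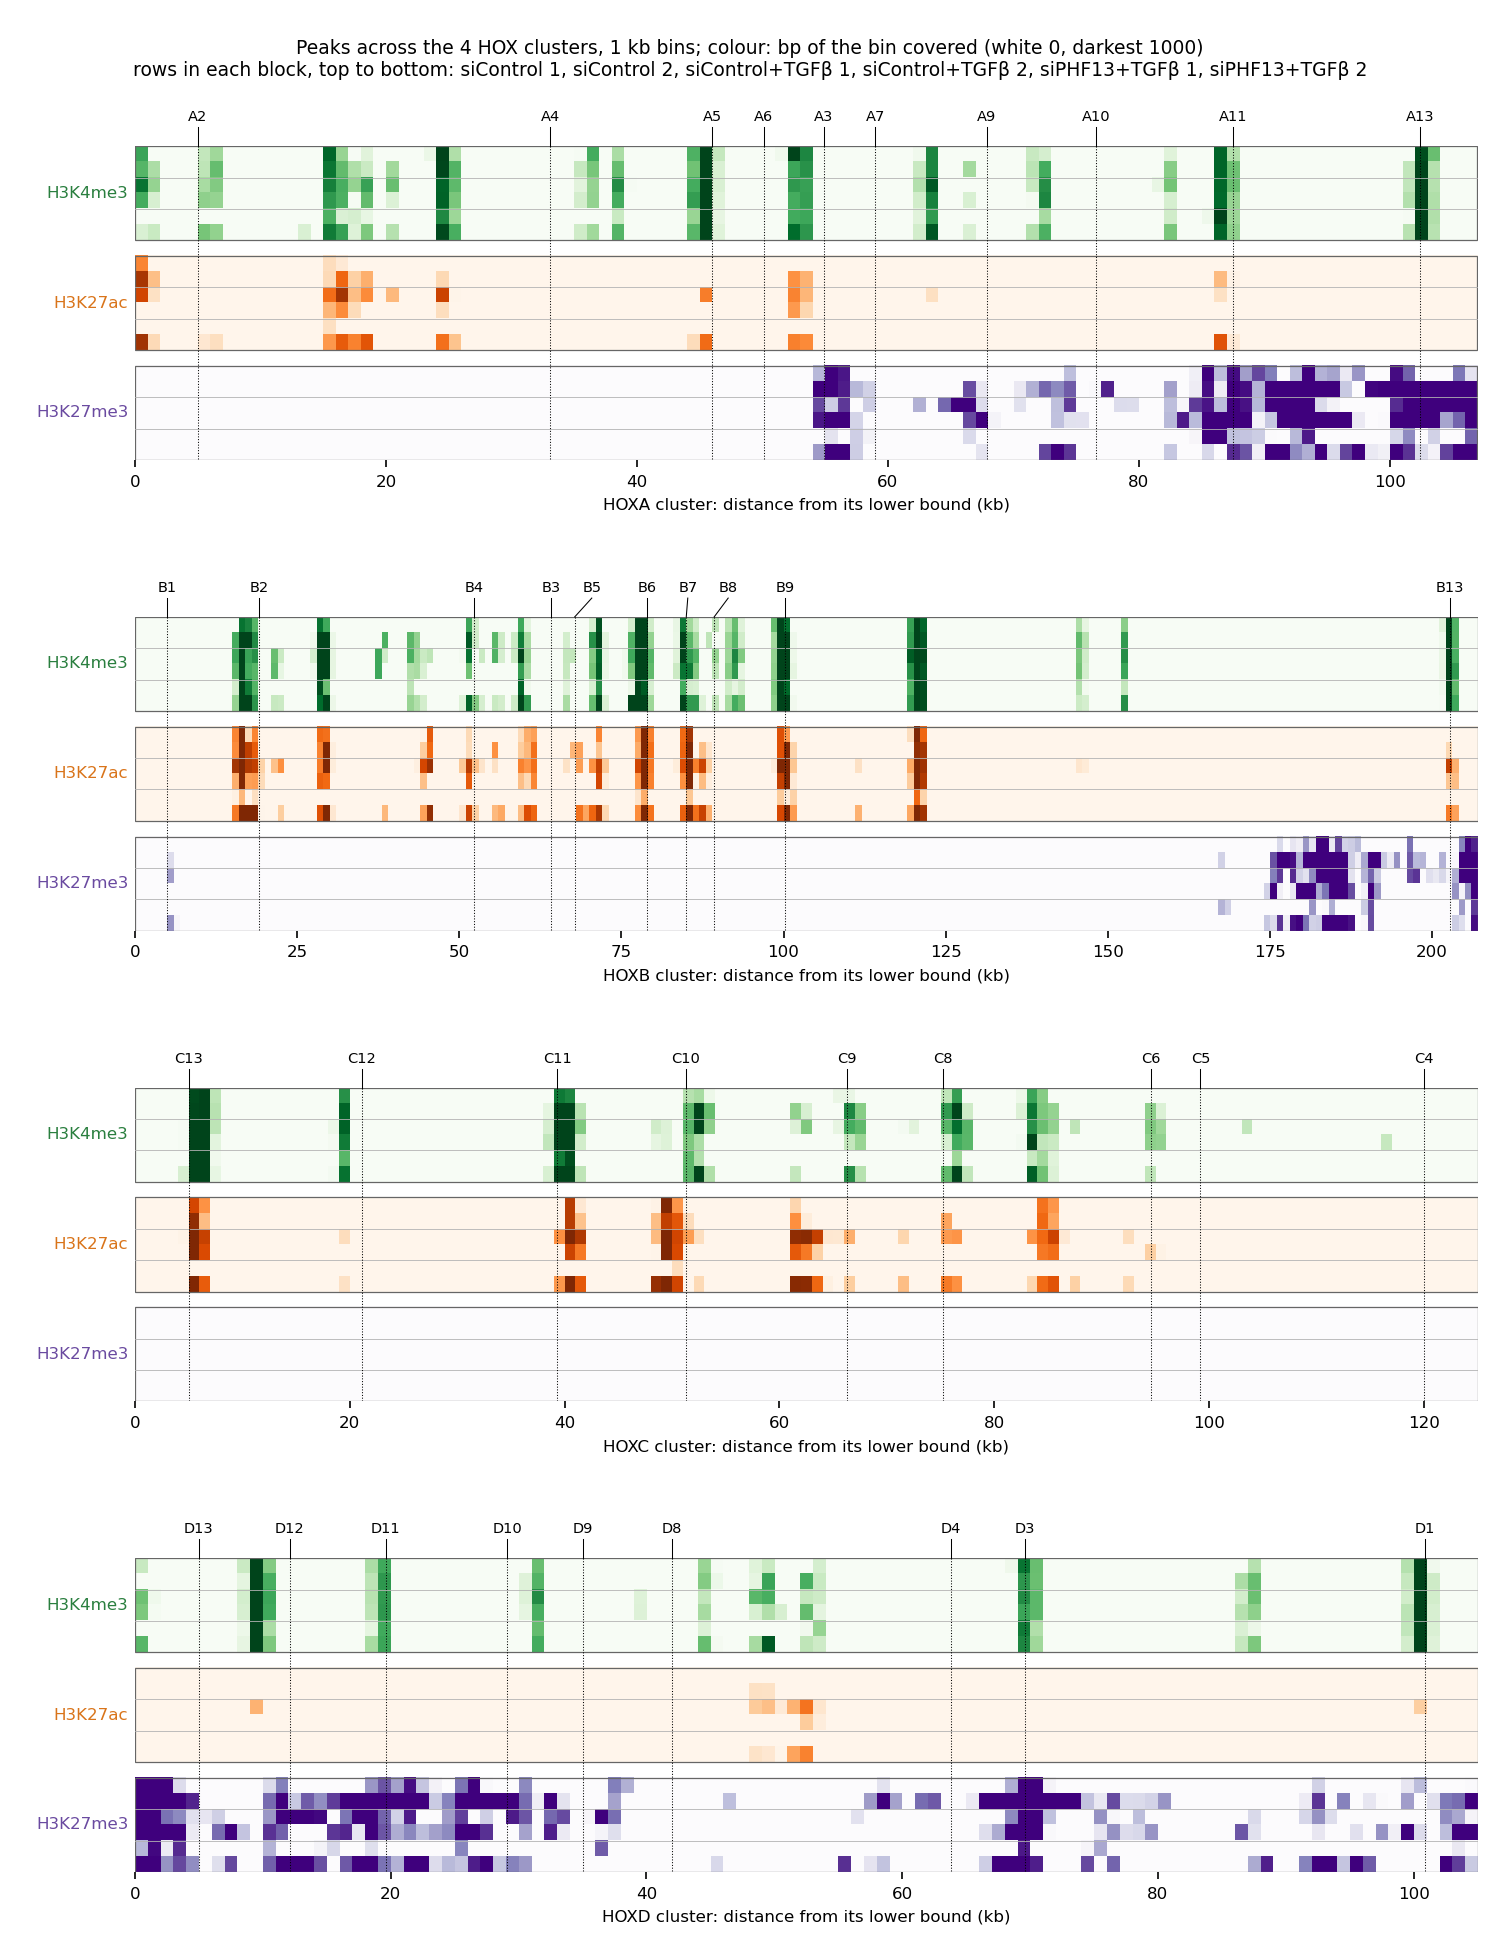
Peaks along the 4 HOX clusters in 1 kb bins, with distance from the lower bound of the cluster in kb on the x axis and the 6 libraries of each modification as rows, replicates in order within each group. Colour gives the bp of a bin covered, dotted lines mark TSSs, and the map shows no H3K27me3 in HOXC and a 169 kb stretch of HOXB without it.

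H3K27ac was unequal between the clusters. Over bases covered in both libraries of a group for both modifications, H3K27ac and H3K27me3 peaks shared 0 bp in HOXA and HOXB in each of the 3 groups and in HOXD in siControl+TGFβ. The value is 0 by construction where one of them covered no base in both libraries, as in HOXC throughout and in HOXD outside siControl+TGFβ. In single lists both were found at HOXA11, where siControl replicate 2 covered 346 bp of H3K27ac and 1680 bp of H3K27me3 within 1 kb of the TSS, so they must share bases there. HOXD was almost without acetylation: its 6 lists covered 0 and 301 bp in the siControl libraries, 2344 and 330 bp in those of siControl+TGFβ and 0 and 1214 bp in those of siPHF13+TGFβ. HOXB had the most, with 12338 and 16395 bp in the siControl libraries, 25203 and 15068 bp in those of siControl+TGFβ and 2746 and 24949 bp in those of siPHF13+TGFβ. The low value among these belongs to the short list named above. HOXC covered 4922 and 6381, 13596 and 7790, and 175 and 13008 bp in the same order, and HOXA 796 and 3998, 6101 and 1859, and 158 and 7271 bp. In siControl+TGFβ, 51.4% of the H3K4me3 bases of HOXB also had H3K27ac, against 1.86% in HOXD, where 34.3% had H3K27me3 instead.

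H3K4me3 was found in all 4 clusters and in HOXA, HOXB and HOXD varied over a smaller range between libraries, relative to its level, than H3K27ac and H3K27me3 did. It covered 9402 to 16773 bp of HOXA, 17188 to 30131 bp of HOXB, 6408 to 15391 bp of HOXC and 6118 to 9812 bp of HOXD. Of the 38 windows, 29 had an H3K4me3 peak in all 6 lists, 7 in 1 to 5 lists and 2 in none. Those 2 were HOXB1, a hindbrain gene, and HOXD4. HOXC4 had a peak in 1 list only, of 253 bp. H3K27ac reached all 6 lists at 6 windows, HOXB2, HOXB6, HOXB7, HOXB8, HOXB9 and HOXC10, and none at 11. H3K27me3 reached all 6 lists at 12 windows and none at 20. Per window, mean H3K4me3 and H3K27ac lengths went together across the 38 genes (Spearman correlation 0.73), and H3K27ac and H3K27me3 went apart (-0.58), again as descriptions with no test.

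Gene order was taken from the paralog group number, which rises from anterior to posterior genes. The canonical TSSs did not always follow it. That of HOXA3 lay 54.9 kb from the lower bound of its cluster, beyond HOXA6 at 50.1 kb. The TSS of HOXB3 lay at 64.2 kb, beyond HOXB4 at 52.3 kb. Within HOXA the Spearman correlation of this number with mean H3K27me3 length was 0.73 over 10 genes, and with H3K27ac -0.55. HOXA H3K4me3 gave 0.13. Within HOXB H3K4me3, H3K27ac and H3K27me3 gave 0.31, 0.10 and 0.08 over 10 genes, and within HOXD 0.37, 0.42 and 0.55 over 9. Many of these windows were tied at 0 bp. For HOXD H3K27ac 6 windows had no peak, and HOXD1, HOXD12 and HOXD13 had one in 1 list only. For HOXB H3K27me3 8 windows had no peak. Within HOXC, which had no H3K27me3, H3K4me3 and H3K27ac gave 0.77 and 0.65 over 9 genes. Over all 38 genes the values were 0.20, -0.02 and 0.31, and the sign for H3K27ac differed between HOXA and the other clusters. Neighbouring windows share peaks, so no p-value is given.

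Each TSS was next classed by the peaks within 1 kb of it, a modification being counted where both libraries of a group had one. H3K4me3 stood at 19 of 38 TSSs (50%) in siControl cells, at 21 (55.3%) with TGFβ and at 15 (39.5%) with siPHF13 and TGFβ, against 67.8, 69.3 and 67.1% of all coding TSSs. H3K27ac stood at 8, 9 and 5 HOX TSSs, against 44.2, 51.6 and 18.3% of all coding TSSs. H3K27me3 stood at 7, 10 and 5, and the percentages for all coding TSSs were 17.8, 19.8 and 12.5%. TSSs counted in siControl+TGFβ and not in siPHF13+TGFβ all lacked a peak in siPHF13+TGFβ replicate 1 and had one in replicate 2. For H3K4me3 these were HOXA2, HOXB4, HOXB8, HOXC6, HOXC8 and HOXC9, with 0 bp in replicate 1 and 272 to 1215 bp in replicate 2. For H3K27ac they were HOXB4, HOXB13, HOXC11 and HOXC13, and for H3K27me3 HOXA9, HOXB13, HOXD10, HOXD12 and HOXD13. With a −log10 q (q being the peak caller's false discovery estimate) of at least 3 required of every peak, 0 HOX TSSs carried H3K27me3 in any group, and the windows with a peak in at least 2 lists went from 18 to 1 among HOX genes and from 7724 to 922 in all. Within their own lists HOX peaks could still rank high, the strongest at HOXD13 having a median percentile of 96.1, at HOXB13 95.1 and at HOXD12 94.1. Within 1 kb and in both libraries of a group, HOX genes were listed with H3K4me3 less often than coding genes at large. Within 5 kb and in single libraries they were listed more often, at 76.3 to 94.7% of HOX windows against 71.2 to 74.9% of all. These rules differ, and a 5 kb window can count a neighbour's peak, as that of HOXC5 counts the HOXC6 peak. Neither difference was tested.

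Co-occupied TSSs numbered 5 in both control groups and 4 in siPHF13+TGFβ. HOXA11 and HOXD11, which pattern the forearm and kidney, HOXA13, which patterns the digits and genital tract, and HOXD3 were co-occupied in all 3 groups. HOXD1 was the fifth in siControl, and HOXB13, a regulator of the prostate and hindgut, the fifth in siControl+TGFβ. HOXB13 also had H3K27ac within 1 kb there and was the only member with all 3 modifications. The class with H3K4me3 and H3K27ac and no H3K27me3 held 8 TSSs in both siControl and siControl+TGFβ, HOXB2, HOXB4, HOXB6, HOXB7, HOXB9, HOXC10, HOXC11 and HOXC13. In siPHF13+TGFβ it held 5, without HOXB4, HOXC11 and HOXC13, none of which had an H3K27ac peak in the window in replicate 1. Among 56 other homeobox genes (NKX, DLX, LHX, IRX and related families), 28.6% were co-occupied in siControl and 5.36% had H3K27ac, against 13.2 and 21.1% of the HOX genes. No TSS had any peak within 1 kb at HOXA4, HOXA6, HOXB3, HOXC4, HOXC5, HOXC12, HOXD4 or HOXD8 in any of the 3 groups.

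**Figure D2:**
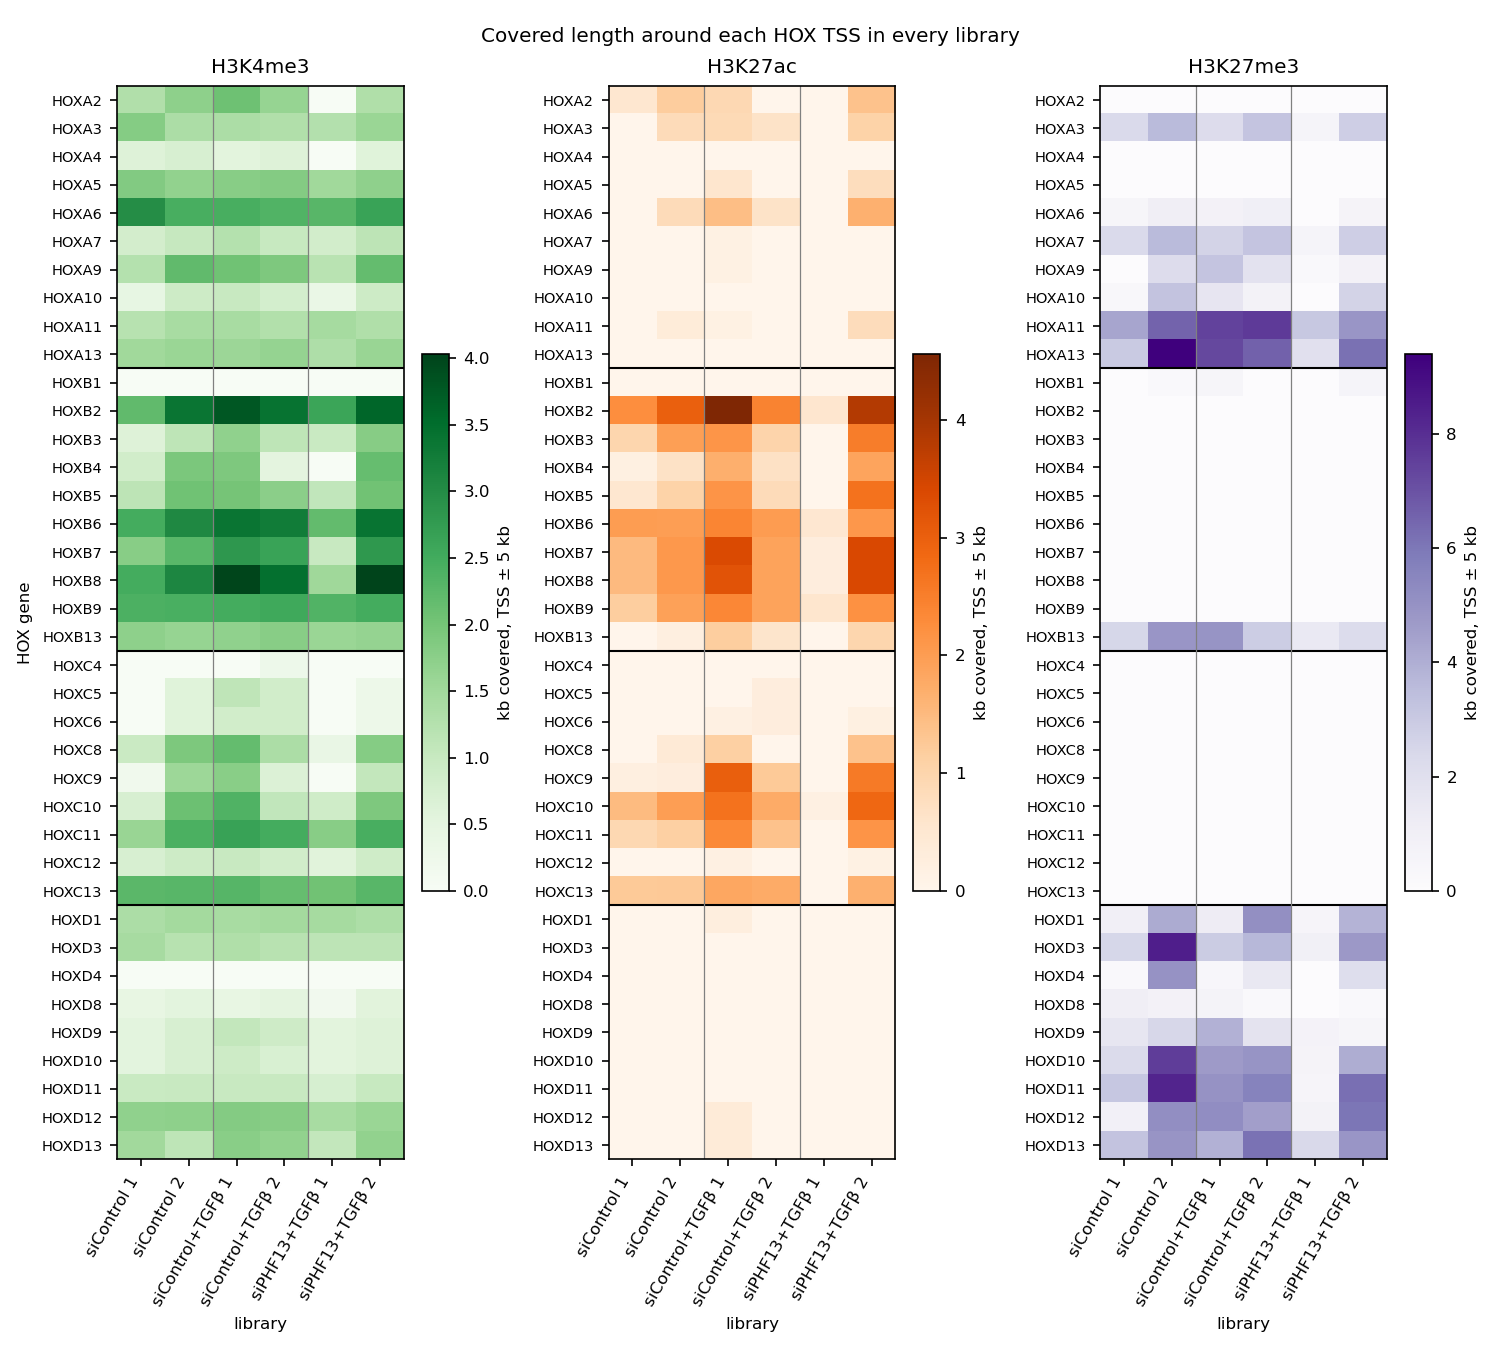
Covered length in kb within 5 kb of each HOX TSS, with the 38 genes as rows and the 6 libraries as columns for each modification, each on its own colour scale starting at 0. HOXB2 to HOXB9 have H3K4me3 and H3K27ac in at least 5 of 6 lists and no H3K27me3, and the H3K27ac column of siPHF13+TGFβ replicate 1 is nearly empty throughout.

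Among single genes, the posterior end of HOXA and most of HOXD led in H3K27me3. HOXA13 covered 3000 and 9390 bp in the siControl libraries, 7265 and 6575 bp in those of siControl+TGFβ and 1969 and 6179 bp in those of siPHF13+TGFβ. HOXD11 covered 3107 and 8280, 5004 and 5592, and 548 and 6211 bp, so replicates of siControl and of siPHF13+TGFβ differed more than the group means did. HOXD13, the most posterior gene of its cluster and needed for digits, covered 3233 and 4879, 3902 and 6159, and 2364 and 4850 bp. HOXB13 was the only HOXB gene with H3K27me3 in all 6 lists, at 2479 and 4846, 4944 and 2882, and 1406 and 2227 bp. HOXD8 had the least of the HOXD genes.

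HOXB2 had the highest 6-library mean in both active modifications. For H3K4me3 this rested on siPHF13+TGFβ replicate 1, since HOXB8 was above HOXB2 in 4 of the 6 lists. HOXB2, which acts in the hindbrain, covered 2201 and 3370 bp of H3K4me3 in the siControl libraries, 3788 and 3411 bp in those of siControl+TGFβ and 2599 and 3601 bp in those of siPHF13+TGFβ. Its H3K27ac measured 2243 and 2991, 4554 and 2421, and 538 and 3830 bp. HOXB7 came next in acetylation, with 1507 and 2077, 3376 and 1901, and 282 and 3409 bp. In HOXC the most acetylated windows were those of HOXC10, with 1485 and 1989, 2701 and 1755, and 175 and 2881 bp, and of HOXC11. In HOXA the most acetylated was HOXA6, with 0 and 839, 1431 and 658, and 0 and 1669 bp. HOXD12 and HOXD13 shared 1 peak of 356 bp in 1 list.

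H3K4me3 was steadier. HOXA6 covered 2981 and 2450, 2443 and 2349, and 2285 and 2635 bp, and HOXA9, a gene of blood progenitors, 1252 and 2190, 2059 and 1899, and 1184 and 2162 bp. HOXC13, which acts in hair and nail, covered 2257 and 2284, 2297 and 2140, and 2043 and 2288 bp. HOXC11 covered 1594 and 2419, 2647 and 2474, and 1786 and 2453 bp. HOXD12 covered 1691 and 1730, 1840 and 1807, and 1409 and 1581 bp. The lowest in HOXA was HOXA4, at 629 and 737, 548 and 617, and 0 and 590 bp. The strongest H3K4me3 peak in the HOXB13 window stood at a median percentile of 98.6 of its list by strength, with a median fold enrichment of 8.3 over input. HOXB7 and HOXB8 had longer mean covered lengths, 2220 and 3093.8 bp beside 1672.7 bp at HOXB13, and reached percentile 45.5. That length in the HOXB8 window was split over separate peaks. The longest of them measured 824 bp in siControl replicate 1 and 1649 bp in replicate 2, beside single HOXB13 peaks of 1723 and 1625 bp.

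One long peak in HOXB lay at no HOX TSS. Between 18.7 and 21.6 kb upstream of HOXB9, H3K4me3 peaks of 2552 and 2627, 2899 and 2659, and 2559 and 2653 bp were listed in the 3 groups. H3K27ac peaks of 1800 and 1818 bp in siControl and 2277 and 2108 bp in siControl+TGFβ lay in the same place. In siPHF13+TGFβ replicate 1 it held H3K27ac peaks of 644 and 215 bp, and in replicate 2 one of 2290 bp. The annotation places the starts of the noncoding genes LINC03057 and LINC02086 there. This place and these genes were picked after their values were seen.

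The first comparison, siControl+TGFβ against siControl, asks what TGFβ did to these marks. No HOX window passed limma's moderated test over all coding windows with a peak in at least 2 of 6 lists. For H3K4me3, 0 of 35 HOX windows tested and 0 of 15018 windows in all (0%) had a Benjamini-Hochberg adjusted p under 0.05, and the adjusted p of HOX genes ran from 0.815 to 0.992. At an unadjusted p under 0.05 there were 1 HOX window and 711 in all. For H3K27ac the counts were 0 of 21 and 0 of 12049 (0%) with limma adjusted p from 0.911, and 1 and 61 at an unadjusted p under 0.05. For H3K27me3 they were 0 of 18 and 0 of 7724 (0%) with limma adjusted p of 1, and 0 and 77 unadjusted.

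Since 2 against 2 libraries allow no exact permutation p below 0.333, windows were also counted in which both libraries of one group lay beyond both of the other. For H3K4me3, 13 of 35 HOX windows (37.1%) were higher under TGFβ without overlap and 3 (8.57%) lower, against 46.6% and 2.28% of all windows tested. For H3K27ac, 7 of 21 (33.3%) were higher and 0 lower, against 55.4% and 0.0332% of all. For H3K27me3, 1 of 18 (5.56%) was higher and 1 lower, against 6.91% and 7.69%. For H3K4me3 and H3K27ac the HOX share was below the background among higher windows. The median HOX difference was 203 bp for H3K4me3, 532 bp for H3K27ac and 117.8 bp for H3K27me3, beside 151.5, 426 and -32 bp over all windows tested. With each library scaled to the same total over all coding windows, the HOX counts became 6 higher and 8 lower for H3K4me3, 3 and 6 for H3K27ac, and 4 and 1 for H3K27me3. Of all windows, 13.2% were then higher and 18.5% lower for H3K4me3, 18.2 and 18.4% for H3K27ac, and 14.4 and 11.9% for H3K27me3. The median differences then were 100, 54.8 and 183.9 bp for HOX windows and -30.6, -1.4 and -22.1 bp for all.

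The largest H3K27ac difference under TGFβ among non-overlapping HOX windows was at HOXC9, a thoracic patterning gene. HOXC9 covered 213 and 284 bp in the siControl libraries and 3022 and 1242 bp in those of siControl+TGFβ, with 0 and 2571 bp in those of siPHF13+TGFβ. Both siControl+TGFβ lists lay above both control lists, and the siPHF13 lists lay on either side of them. The difference of 1883.5 bp (SE 787.7 bp, n = 2 and 2) had a limma p of 0.0168 and an adjusted p of 0.911. In the siControl+TGFβ lists most of this length lay from -5275 to -2219 bp relative to the TSS. The peaks there had fold enrichments over input of 1.69 to 2.01. Of this length 1008 bp in 4 stretches, the printed sequence among them, were covered in both siControl+TGFβ lists and neither control list. siPHF13+TGFβ replicate 2 covered all 235 bp of the printed stretch and replicate 1 none of it.

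HOXB13 acetylation measured 0 and 196 bp in the siControl libraries, 1168 and 600 bp in those of siControl+TGFβ and 0 and 981 bp in those of siPHF13+TGFβ, and its peaks under TGFβ lay within 1 kb of the TSS. The difference under TGFβ was 786 bp (SE 521.6 bp) with a limma adjusted p of 0.911. HOXC11 acetylation was 933 and 1128 bp in the siControl libraries and 2336 and 1353 bp in those of siControl+TGFβ, with 0 and 2135 bp in those of siPHF13+TGFβ. HOXC9, HOXB13 and HOXC6 were the 3 HOX windows that also stood higher without overlap at equal total coverage, and HOXC11 was not among them. HOXC6 acetylation was 0 bp in both siControl libraries, 170 and 274 bp in those of siControl+TGFβ and 0 and 193 bp in those of siPHF13+TGFβ.

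In H3K4me3 the largest non-overlapping differences under TGFβ were in HOXB. HOXB8 covered 2473 and 3090 bp in the siControl libraries, 4010 and 3447 bp in those of siControl+TGFβ and 1516 and 4027 bp in those of siPHF13+TGFβ. Its difference under TGFβ was 947 bp (SE 822.2 bp), HOXB2 followed with 814 bp (SE 539.6 bp) and HOXB7 with 690.5 bp (SE 575.2 bp), each with a limma adjusted p of 0.815. HOXB7 covered 1788 and 2280 bp in the siControl libraries, 2821 and 2628 bp in those of siControl+TGFβ and 988 and 2815 bp in those of siPHF13+TGFβ. At equal total coverage the groups still did not overlap at HOXB7 and HOXB8, and did at HOXB2. The windows of HOXB7 and HOXB8 overlap and had the same strongest H3K4me3 peak in all 6 lists, so they are not independent. The 3 windows lower under TGFβ were those of HOXA3, HOXA4 and HOXA6, with differences of -264, -100.5 and -319.5 bp. All of them stayed lower without overlap at equal total coverage, and the windows of HOXA3 and HOXA6 share bases.

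H3K27me3 under TGFβ was higher without overlap at HOXA11, which covered 4319 and 6563 bp in the siControl libraries, 7424 and 7638 bp in those of siControl+TGFβ and 3059 and 4845 bp in those of siPHF13+TGFβ. The difference was 2090 bp (SE 2225 bp, limma adjusted p 1). HOXD8 was lower, with 1034 and 838 bp in the siControl libraries, 683 and 233 bp in those of siControl+TGFβ and 0 and 256 bp in those of siPHF13+TGFβ, a difference of -478 bp (SE 451 bp, limma adjusted p 1). The standard errors were about as large as the differences.

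**Figure D3:**
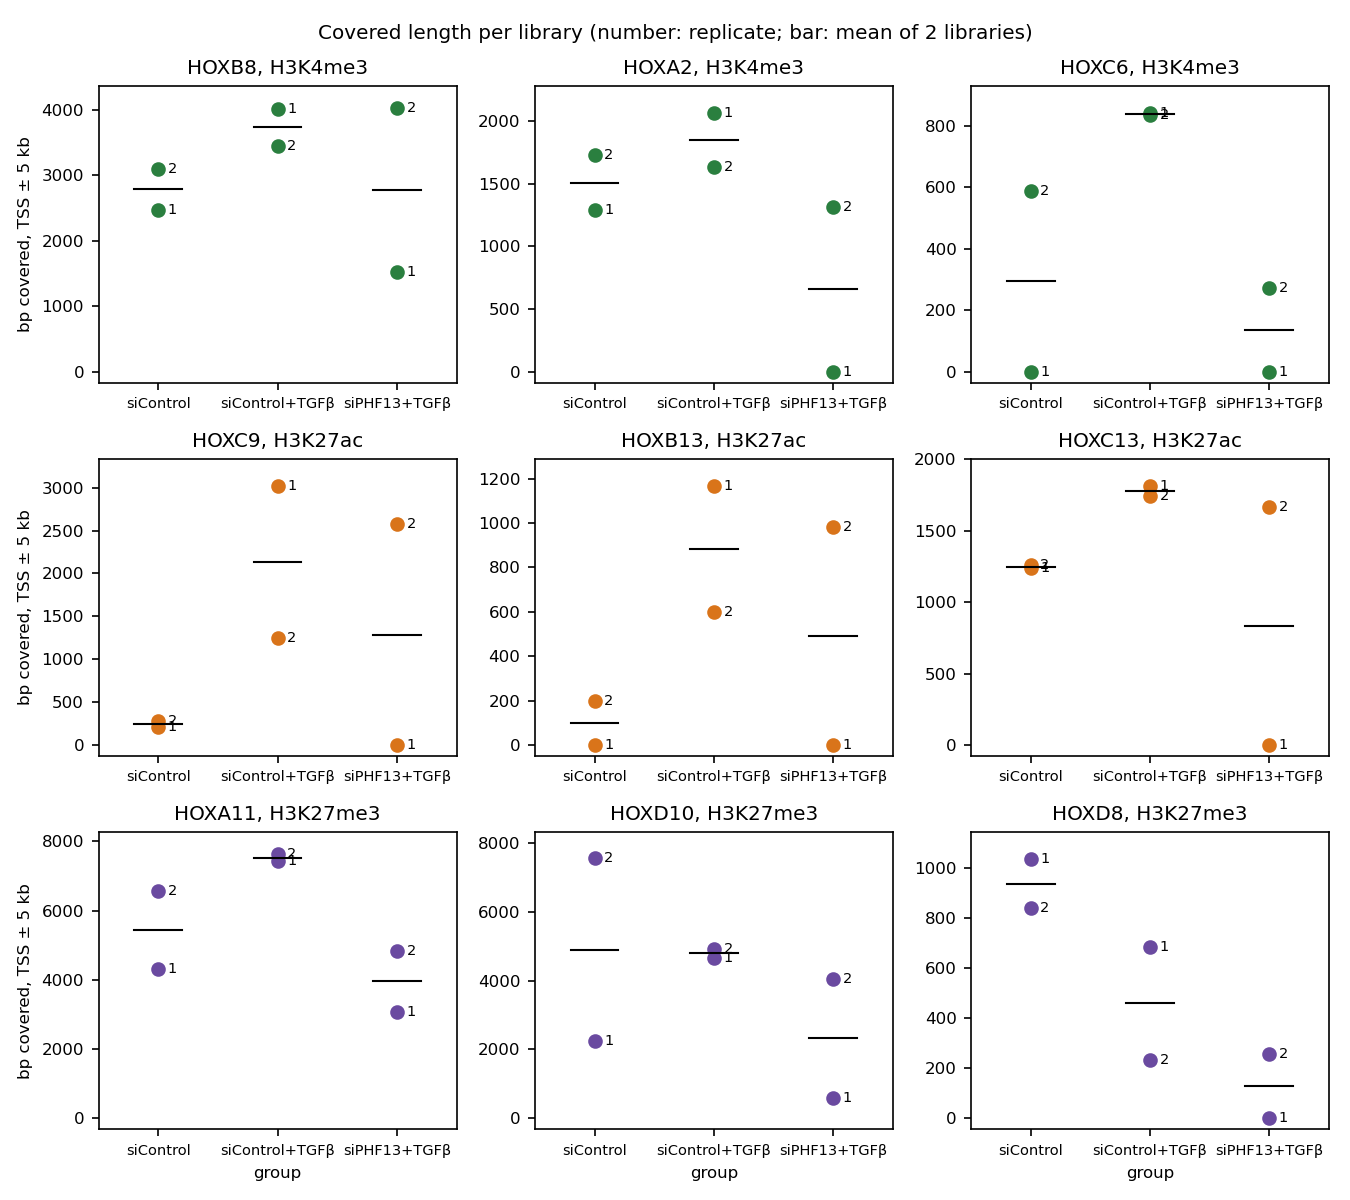
Covered bp per library (y axis, window of 5 kb to each side of the TSS) for 9 HOX genes by group, each point a library numbered by replicate and each bar the mean of 2. HOXC6 H3K4me3 and HOXC9 H3K27ac are higher in both siControl+TGFβ lists than in both siControl lists, and replicate 1 of siPHF13+TGFβ is the lower point in all 9 panels.

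The second comparison, siPHF13+TGFβ against siControl+TGFβ, asks what PHF13 depletion changed under the cytokine, and it uses the same siControl+TGFβ lists as the first. No HOX window passed limma's test in any modification. The lowest adjusted p among HOX genes was 0.354 for H3K4me3, 0.806 for H3K27ac and 0.97 for H3K27me3, and 0% of all windows tested were called. At an unadjusted p under 0.05, H3K4me3 had 5 of 35 HOX windows (14.3%) and 1982 of 15018 in all (13.2%), H3K27ac 0 and 12, and H3K27me3 0 and 48. The 5 were HOXA2, HOXC5, HOXC6, HOXD9 and HOXD12.

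Without overlap, 0 HOX windows were higher and 11 of 35 (31.4%) lower in H3K4me3, against 0.313% and 60.8% of all windows. In H3K27ac 0 of 21 were higher and 1 (4.76%) lower, against 0.0166% and 11% of all, and in H3K27me3 0 of 18 were higher and 7 (38.9%) lower, against 1.31% and 28.7%. The share of HOX windows was smaller than the background in H3K4me3 and H3K27ac and larger in H3K27me3, as counts with no test. At equal total coverage the HOX counts became 6 higher and 5 lower for H3K4me3, 2 and 1 for H3K27ac, and 0 and 4 for H3K27me3. Of all windows, 21.3% were then higher and 14.5% lower for H3K4me3, 4.42 and 16.4% for H3K27ac, and 10.5 and 20.6% for H3K27me3. The median HOX difference in the lists as deposited was -254 bp for H3K4me3, -324 bp for H3K27ac and -1324.2 bp for H3K27me3, beside -264, -524.5 and -737.2 bp over all windows. At equal total coverage the medians were -56, -4.37 and -572 bp for HOX windows and 38.9, -220.2 and -176.6 bp for all.

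**Figure D4:**
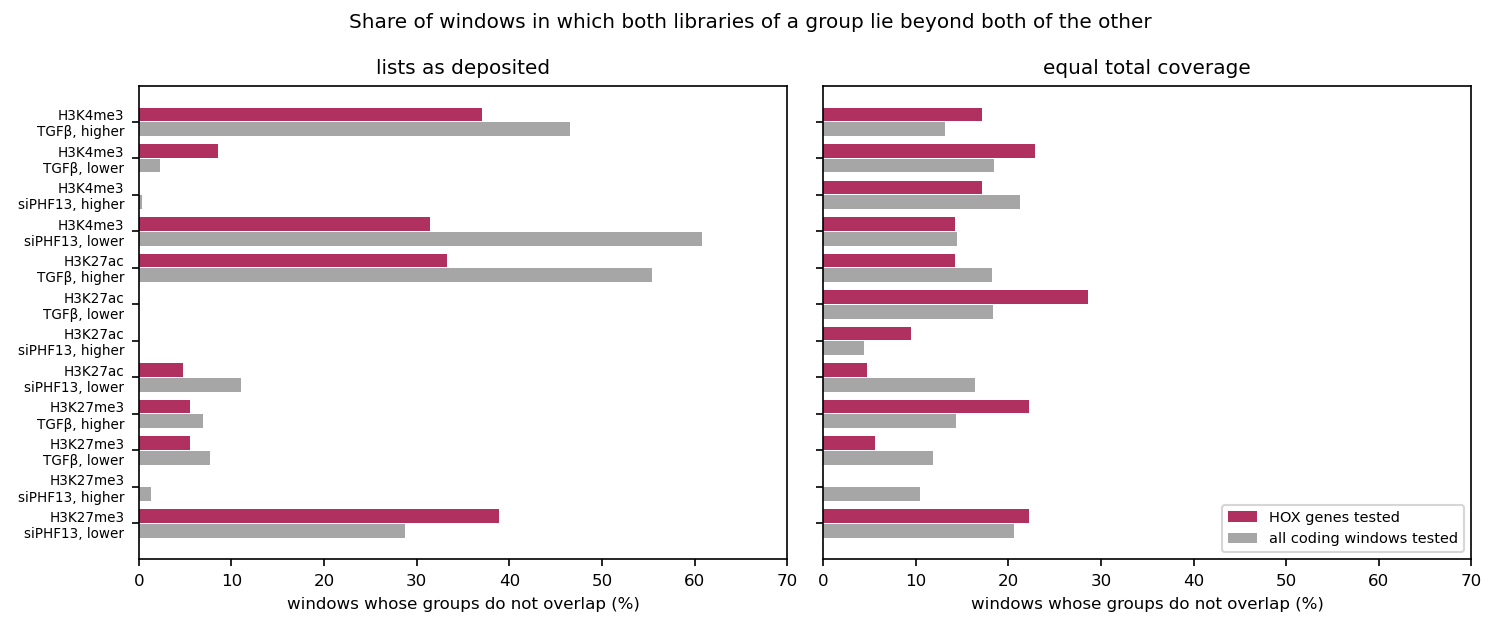
Percent of windows tested in which both libraries of the first group lie above (higher) or below (lower) both of the other, for HOX genes and for all coding windows, from the lists as deposited (left) and at equal total coverage (right). For H3K4me3 under siPHF13 the lower share is 31.4% of HOX and 60.8% of all windows on the left, and on the right 5 of 35 HOX windows were lower and 6 higher, beside 14.5% and 21.3% of all windows.

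HOXA2, a selector of the second branchial arch, had the largest non-overlapping H3K4me3 difference. It covered 1290 and 1726 bp in the siControl libraries, 2066 and 1632 bp in those of siControl+TGFβ and 0 and 1317 bp in those of siPHF13+TGFβ, a difference of -1190.5 bp (SE 442.8 bp, limma adjusted p 0.354). The 0 bp belongs to replicate 1, the shortest H3K4me3 list, in which the overlapping window of the noncoding gene HOTAIRM1 held 1862 bp. With siControl+TGFβ, part of the HOXA2 length lay 3592 bp or farther downstream of the TSS. The HOXA2 peak upstream of the TSS was longest in siPHF13+TGFβ replicate 2, at 906 bp, when set beside 810 and 834 bp with siControl+TGFβ. HOXC6 covered 0 and 590 bp in the siControl libraries, 844 and 837 bp in those of siControl+TGFβ and 0 and 272 bp in those of siPHF13+TGFβ. Both siControl+TGFβ lists stood above the other 4. The difference was 545.5 bp (SE 230.5 bp, limma adjusted p 0.815) in the first comparison and -704.5 bp (SE 230.5 bp, adjusted p 0.354) in the second, which share the siControl+TGFβ lists. The peak lay at the TSS, from -77 to 766 bp in siControl+TGFβ replicate 1. HOXC5 covered 0 and 590, 1111 and 837, and 0 and 272 bp, mostly from the same peak, which ends at -3809 bp or farther from its TSS, so HOXC5 and HOXC6 are not independent.

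At equal total coverage HOXA2, HOXC5, HOXC6, HOXD9 and HOXD10 stayed lower in siPHF13+TGFβ without overlap in H3K4me3. HOXD9 covered 1058 and 881 bp in the siControl+TGFβ libraries and 538 and 616 bp in those of siPHF13+TGFβ. The HOXD10 window held the same 538 and 616 bp, and the windows of HOXD9 and HOXD10 overlap.

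The H3K27ac window lower without overlap was that of HOXC13, with 1237 and 1259 bp in the siControl libraries, 1815 and 1745 bp in those of siControl+TGFβ and 0 and 1664 bp in those of siPHF13+TGFβ, a difference of -948 bp (SE 796.1 bp, limma adjusted p 0.806). The zero was the short list. When siPHF13+TGFβ replicate 2 was left out, so that replicate 1 stood alone, 11 HOX windows of 21 and 6243 of 12049 in all passed limma's adjusted test for lower H3K27ac, and when replicate 1 was left out 0 did. With 1 library in that arm the spread came from the other groups alone, and the lone library, the short list, was assumed to vary like them. With replicate 1 left out, 12 HOX windows had more H3K27ac in the remaining siPHF13+TGFβ list than in both siControl+TGFβ lists, as did 3526 of 12049 windows in all.

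For H3K27me3, HOXA11 covered 7424 and 7638 bp in the siControl+TGFβ libraries and 3059 and 4845 bp in those of siPHF13+TGFβ, a difference of -3579 bp (SE 2225 bp, limma adjusted p 0.97). At equal total coverage its groups overlapped, and HOXA6, HOXA9, HOXA13 and HOXD10 were the windows still lower without overlap. HOXA13 differed by -2846 bp (SE 2641.5 bp) and HOXD10, which specifies limb motor neurons, by -2478 bp (SE 2507.3 bp), both with a limma adjusted p of 0.97. HOXD10 covered 2246 and 7572 bp in the siControl libraries, 4677 and 4924 bp in those of siControl+TGFβ and 587 and 4058 bp in those of siPHF13+TGFβ. The siControl values of HOXD10 lay on either side of both siControl+TGFβ values. With replicate 2 of siPHF13+TGFβ left out, 17 of 18 HOX windows and 5847 of 7724 in all were lower. With replicate 1 left out, 6 HOX windows were higher and 7 lower, beside 2333 and 2260 in all.

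Over the 4 clusters together, H3K4me3 covered 47.2 and 65.8 kb in the siControl libraries, 72.1 and 60.5 kb in those of siControl+TGFβ and 39.1 and 65.5 kb in those of siPHF13+TGFβ. H3K27ac covered 18.1 and 27.1, 47.2 and 25, and 3.08 and 46.4 kb, and H3K27me3 35.5 and 93.3, 66.6 and 68.7, and 17.9 and 68.4 kb. In each of these comparisons the groups overlapped. The differences under TGFβ were 9.83, 13.6 and 3.23 kb and under siPHF13 -14, -11.4 and -24.5 kb, with exact two-sided permutation p of 0.667 or 1 (n = 2 and 2, smallest possible 0.333). Scaled to equal total coverage, the H3K27ac totals came to 25.5 and 26.6, 29.6 and 23.3, and 24.6 and 31.5 kb. On that scale the differences for H3K4me3, H3K27ac and H3K27me3 were 3.9, 0.392 and 5.24 kb under TGFβ and -4.86, 1.6 and -6.82 kb under siPHF13.

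**Figure D5:**
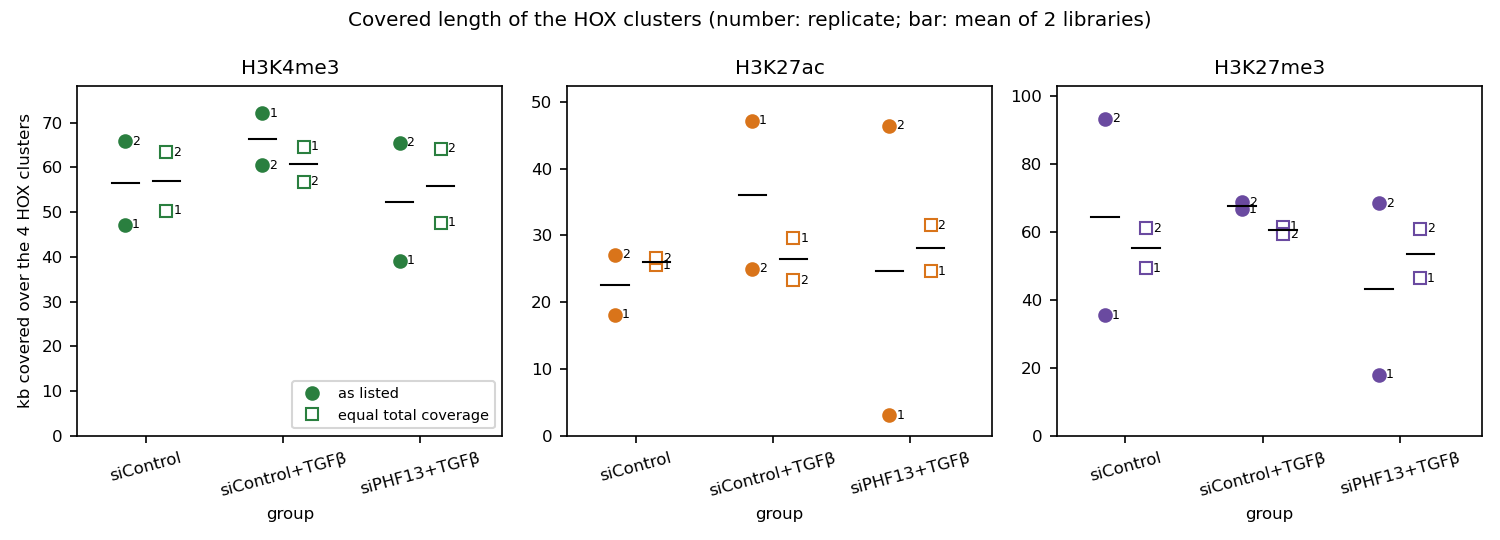
Total kb covered over the 4 HOX clusters per library, with groups on the x axis, filled circles for the lists as deposited, open squares at equal total coverage and bars for the mean of 2 libraries. H3K27ac runs from 3.08 to 47.2 kb as deposited and from 23.3 to 31.5 kb at equal total coverage.

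The clusters also hold noncoding genes, and 13 of 14 listed were found in the annotation. HOTAIR, a long noncoding RNA of HOXC, covered 2336 and 1353 bp of H3K27ac in siControl+TGFβ and 933 and 1128 bp in siControl, the same values as HOXC11, whose window overlaps its own. HOTTIP, at the posterior end of HOXA, covered 4645 and 10001, 8540 and 8328, and 1969 and 6707 bp of H3K27me3 and 0 bp of H3K27ac in each list. HOXB-AS3 covered 470 and 813 bp of H3K4me3 in the siControl libraries, 1684 and 1334 bp in those of siControl+TGFβ and 611 and 1066 bp in those of siPHF13+TGFβ, so that both siControl+TGFβ lists lay above the other 4.

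The miR-196 genes lie in HOXA, HOXB and HOXC and target HOX messages. Their mature sequences (RefSeq, GRCh38.p14) are shown because they share 1 seed, bases 2 to 8, in capitals, while the chromatin around the genes differs.
hsa-miR-196a-5p (MIR196A1 in HOXB, MIR196A2 in HOXC): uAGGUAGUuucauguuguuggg
hsa-miR-196b-5p (MIR196B in HOXA): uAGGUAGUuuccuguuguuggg

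MIR196A2 in HOXC covered 213 and 559 bp of H3K27ac in the siControl libraries, 1853 and 1208 bp in those of siControl+TGFβ and 0 and 1875 bp in those of siPHF13+TGFβ, overlapping the HOXC9 acetylation, and had no H3K27me3. MIR196B in HOXA had no H3K27ac in any list and H3K27me3 of 364 and 2819, 1732 and 1958, and 0 and 2789 bp. MIR196A1 in HOXB had no H3K4me3 and no H3K27me3 in any list, and 95 bp and 129 bp of H3K27ac in 2 lists.

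Genes that work with HOX proteins or on their chromatin were counted as fixed lists, and limma called 0 in each. Of 9 TALE cofactors, the PBX, MEIS and PKNOX homeodomain partners, 9 had H3K4me3 within 1 kb of the TSS in siControl, 4 had H3K27ac and 2 were co-occupied. Of 6 ParaHox genes, the sister group of the HOX clusters, 3 had H3K4me3, 0 had H3K27ac and 2 were co-occupied. The HOX-linked even-skipped genes EVX1 and EVX2 both had H3K27me3 and neither had H3K27ac. Of 19 Polycomb and trithorax regulators, 18 had H3K4me3 and 14 H3K27ac. In H3K4me3 under TGFβ, 3 of 9 TALE cofactors, 2 of 5 ParaHox genes tested, 1 of 2 even-skipped genes and 5 of 19 regulators were higher without overlap, against 46.6% of all windows, and 0, 0, 0 and 2 were lower. Under siPHF13, 0 were higher in each list, and 6 of 9, 1 of 5, 0 of 2 and 11 of 19 were lower, against 60.8% of all.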

How the data were processed

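Per the labels, the authors trimmed reads with Trim Galore 0.4.1, aligned them with Bowtie2 2.4.1 to hg19 and called peaks for each library with MACS2 2.2.7.1. The deposited peak lists give for each peak its position, a score, its fold enrichment over input as a ratio, and −log10 p and q values. The lowest −log10 q was 1.3 in the H3K4me3 and H3K27ac lists and 1 in those of H3K27me3. For H3K4me3 and H3K27ac this is looser than the q cut-off in the study's methods, which corresponds to the −log10 q of 3 tried as an alternative. For H3K27me3, called as broad peaks, that alternative is stricter than the study's own cut-off. Lists of 18 libraries were used, and the 6 input samples were not analysed here.

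From these, peaks were merged in each list and the covered bp counted in windows of 5 kb to each side of the TSS (GENCODE release 44, GRCh37) with Python 3.11.15 and numpy 2.4.6. Windows with a peak in at least 2 of 6 lists were fitted over all coding genes with limma 3.58.1 in R 4.3.3 (one model per modification with 3 groups, empirical Bayes with trend), Benjamini-Hochberg adjusted and called at 0.05. Cluster totals were compared by exact two-sided permutation in Python. Spearman correlations were computed with scipy 1.17.1. For equal total coverage, each library was scaled to one sum over all coding windows. The scripts were tested on simulated data.

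Given with all libraries were, by rule, up to 3 genes with the largest non-overlapping difference per modification and comparison, and the 2 highest and 1 lowest per cluster. HOXB-AS3, HOXD9 and others outside this rule were named after their values were seen. Members and lists were chosen with earlier results of these data known. Alternatives were other windows, TSSs, filters and scalings, a −log10 q of at least 3, lists of equal length, a replicate block and leaving out each library. Some promoter sequences are not reported here.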

Additional observations from a re-analysis of the deposited data

How the results depend on the processing

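The limma counts of HOX windows were 0 under 71 of 72 alternatives, where limma also called 0 of all windows, so these zeros say nothing of stability. The exception was H3K27ac under PHF13 depletion, where leaving out 1 library gave counts from 0 to 11, the 11 without siPHF13+TGFβ replicate 2. Replicate numbers do not pair the samples by the labels, and deviations of same-numbered libraries correlated from -0.42 to 0.61 over the group pairs. With the replicate number as a block, 0 HOX windows were called in each of the 6 comparisons.

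The 4-cluster totals reversed 7 times in 48 alternatives, and the cause was not tested. The H3K27ac difference under TGFβ was -0.554 kb with lists of equal length. Under depletion it was 1.6 kb at equal total coverage and 0.287 kb with lists of equal length, and -33.1 to 10.3 kb when 1 library was left out, 10.3 kb without siPHF13+TGFβ replicate 1. The H3K27me3 difference under TGFβ was -0.346 kb at a −log10 q of at least 3 and -25.7 to 32.2 kb with 1 library left out, -25.7 kb without siControl replicate 1. Under depletion it was -49.8 to 0.82 kb, 0.82 kb without siPHF13+TGFβ replicate 1.

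Counts of non-overlapping HOX windows moved by over 1.5 times in 48 of 108 alternatives. At equal total coverage, higher and lower counts were 6 and 8 for H3K4me3 under TGFβ, 6 and 5 under depletion, 3 and 6 for H3K27ac under TGFβ, 2 higher under depletion, 4 higher for H3K27me3 under TGFβ and 4 lower under depletion. With lists of equal length, higher counts were 7 and 2 for H3K4me3 under TGFβ and depletion and 3 and 1 for H3K27ac, and lower counts were 2 for H3K27ac under depletion and 0 for H3K27me3 under TGFβ. There 6 HOX windows of 5688 in all were tested for H3K27ac and 35 of 14699 for H3K4me3, of which 6612 were higher under TGFβ. In the 2.5 kb window, 1 was lower for H3K4me3 under TGFβ, and 2 were higher and 0 lower for H3K27me3. From the 5 prime end of the gene, 2 were higher for H3K27me3 under TGFβ, and at a −log10 q of at least 3 all its counts were 0, as was the lower count under depletion.

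With 1 library left out, H3K4me3 counts ran from 15 to 27 higher and 3 to 7 lower under TGFβ, and 0 to 10 and 12 to 33 under depletion. All windows moved too, with 8307 to 11096 of 15018 higher and 768 to 1976 lower under TGFβ, and 139 to 1634 and 9357 to 14155 under depletion. H3K27ac counts ran from 7 to 19 and 0 to 2 under TGFβ, and 0 to 12 and 1 to 16 under depletion, and all windows from 6704 to 11788 and 7 to 834 of 12049, and 2 to 3526 and 1331 to 11181. H3K27me3 counts ran from 1 to 15 and 1 to 10 under TGFβ, and 0 to 6 and 7 to 17 under depletion, and all windows from 576 to 4791 and 680 to 5282 of 7724, and 179 to 2333 and 2260 to 5847.

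TSS counts moved in 15 of 36 alternatives. With lists of equal length, H3K27ac stood at 1, 2 and 3 HOX TSSs in siControl, siControl+TGFβ and siPHF13+TGFβ, and at a −log10 q of at least 3 at 2 in siPHF13+TGFβ, where H3K27me3 and co-occupied counts were 0 in all 3 groups. Within 2.5 kb, H3K27me3 stood at 13 in siControl and 10 in siPHF13+TGFβ, and co-occupied TSSs numbered 9, 9 and 7. With 2 libraries per group and depth unknown, a missing peak does not show that the modification is absent.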
